A study of Populus tremula x Populus alba with 6 samples.

Results

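Transcripts of 4 circadian clock genes of poplar were followed in 6 shoot apex libraries. These are LHY1 (Potri.002G180800, chromosome 2), LHY2 (Potri.014G106800, chromosome 14), TOC1 (Potri.015G061900, chromosome 15) and GIGANTEA, or GI (Potri.005G196700, chromosome 5), and they are 4 of the 32049 genes that the files list. All 4 identifiers were present in every library, and all 4 passed the filter on low counts, which left 24991 genes. They were chosen by name and not by any measured value, although earlier results of these data were known. The files list identifiers only, so the names follow the assignment that defined the set and were not checked against a sequence or an annotation here, and chromosomes are read from the identifiers.

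The apices, the growing shoot tips with the meristem and the youngest leaves, came from the poplar hybrid 717-1B4 (Populus tremula x Populus alba). Of the libraries, 3 were wild type (CTRL) and 3 came from plants of the same hybrid in which the gene DDM1 is the target of an RNAi knock-down (RNAi). DDM1 encodes a chromatin remodeller that plants need to keep DNA methylated. All 6 samples were grown on compost at 21 °C with 16 h of light, had 3 weeks of water deficit followed by 1 week of re-watering, and share 1 planting date and 1 harvest date in the labels. The hour of harvest, on which clock gene levels depend, is not given in the sources used here. Neither are the promoter of the construct, the number of transformed lines or the number of plants behind each library, so effects of a line cannot be told apart from those of the knock-down. The level of DDM1 and the markers of the shoot apex were not analysed here, because the identifiers are not paired with names.

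The plant clock is a loop of repressors that peak at different times of day. In Arabidopsis, LHY, a MYB-type DNA-binding protein, peaks around dawn and represses evening genes, TOC1 and GI among them. TOC1, a pseudo-response regulator, accumulates in the evening and represses LHY in return. GI is a large plant-specific protein that binds blue-light receptors of the F-box type, stabilizes the clock regulator ZTL and links the clock to the day-length control of flowering. Poplar has a pair of LHY genes, and the clock takes part in the timing of growth cessation and bud set in trees. Apices collected at different phases of the day can therefore differ in opposite directions in the morning genes (LHY1 and LHY2) and the evening genes (TOC1 and GI). This need not hold for every pair of phases.

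Sense-strand counts over all genes came to between 12399644 and 17165295 in a library, and the clock genes had between 384 and 2952 counts each in a library. Counting error was therefore small beside the differences between libraries described below. On the first principal component of log2 CPM over all tested genes, with 35.4% of the variance, RNAi 2 stood apart with a score of 63.7. Scores were -14.6, -17.4 and -34.2 in CTRL 1, 2 and 3 and -6.49 and 8.88 in RNAi 1 and 3. All RNAi libraries thus scored above all CTRL libraries, and this separation was not tested. The second component held 28.6% of the variance and had CTRL 2 (34.3) and RNAi 3 (34.6) at one end and CTRL 1 (-44.2) at the other.

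None of the 4 clock genes differed between RNAi and wild-type apices beyond the spread between libraries, and for each of them the levels of the groups overlapped. Fitted levels were higher in RNAi by 1.07-fold to 1.18-fold, and the 95% interval of each gene included no change. From the lowest to the highest of the 3 wild-type libraries, single libraries differed by 1.25-fold to 1.46-fold. The morning genes were instead highest in 1 library of each genotype, CTRL 1 and RNAi 2. GI was low in both, but it was also low in CTRL 3, where LHY1 and LHY2 were lowest. TOC1 was low in CTRL 1 but not in RNAi 2. Levels are given as CPM, in which each count is divided by a library size scaled with trimmed-mean (TMM) factors.

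LHY1 stood at 63.0, 51.9 and 50.3 CPM in CTRL 1, 2 and 3 and at 55.3, 69.8 and 56.4 CPM in RNAi 1, 2 and 3. RNAi 2 was the highest library and CTRL 1 the next, and the other 4 lay close together across both genotypes. The 95% counting intervals (exact Poisson) of neighbours in this order overlapped throughout, while that of RNAi 2, from 65.8 to 74.1 CPM, lay above those of all libraries except CTRL 1. The group means were 55.1 ± 6.91 CPM in CTRL and 60.5 ± 8.09 CPM in RNAi (SD, n = 3 each). The log2 fold change was 0.14 ± 0.15 (SE, edgeR quasi-likelihood adjusted p = 0.86). Its 95% interval reached from 0.868-fold to 1.39-fold of the wild-type level.

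LHY2, the second copy of the dawn repressor, stood at 51.9, 40.7 and 35.6 CPM in CTRL 1, 2 and 3 and at 36.9, 62.0 and 37.7 CPM in RNAi 1, 2 and 3. It had the same libraries at the top as LHY1, and here RNAi 2 lay above CTRL 1, and CTRL 1 above the rest, without overlap of the counting intervals. RNAi 2 had 1.74 times the level of CTRL 3, the widest range of the 4 genes. The group means were 42.7 ± 8.37 CPM in CTRL and 45.5 ± 14.2 CPM in RNAi (SD, n = 3 each). The fitted log2 fold change was 0.09 ± 0.23 (SE, edgeR quasi-likelihood adjusted p = 0.95), and its 95% interval reached from 0.735-fold to 1.55-fold. The sign of this value rested on single libraries, being -0.20 without RNAi 2 and -0.02 without CTRL 3.

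TOC1, the evening repressor of LHY, stood at 33.2, 43.2 and 35.7 CPM in CTRL 1, 2 and 3 and at 36.4, 42.7 and 46.7 CPM in RNAi 1, 2 and 3. RNAi 3, CTRL 2 and RNAi 2 formed an upper group of 3 whose counting intervals overlapped, and RNAi 1, CTRL 3 and CTRL 1 a lower one, with intervals that met between RNAi 2 and RNAi 1. Both genotypes were in each. The means were 37.4 ± 5.22 CPM in CTRL and 42.0 ± 5.18 CPM in RNAi (SD, n = 3 each). This gave a log2 fold change of 0.17 ± 0.15 (SE, edgeR quasi-likelihood adjusted p = 0.83) and a 95% interval from 0.885-fold to 1.42-fold.

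GI, the evening protein that acts between the clock and day-length responses, stood at 107, 146 and 115 CPM in CTRL 1, 2 and 3 and at 147, 117 and 170 CPM in RNAi 1, 2 and 3. The libraries fell into 3 levels that did not overlap in their counting intervals. RNAi 3 was highest, RNAi 1 and CTRL 2 were level with each other, and RNAi 2, CTRL 3 and CTRL 1 were lowest. The means were 123 ± 20.3 CPM in CTRL and 145 ± 26.8 CPM in RNAi (SD, n = 3 each). With a log2 fold change of 0.24 ± 0.19 (SE) GI had the largest fitted difference of the 4 genes, and it too missed the threshold (edgeR quasi-likelihood adjusted p = 0.82). The 95% interval, from 0.874-fold to 1.59-fold, includes lower as well as higher levels in RNAi.

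**Figure D1:**
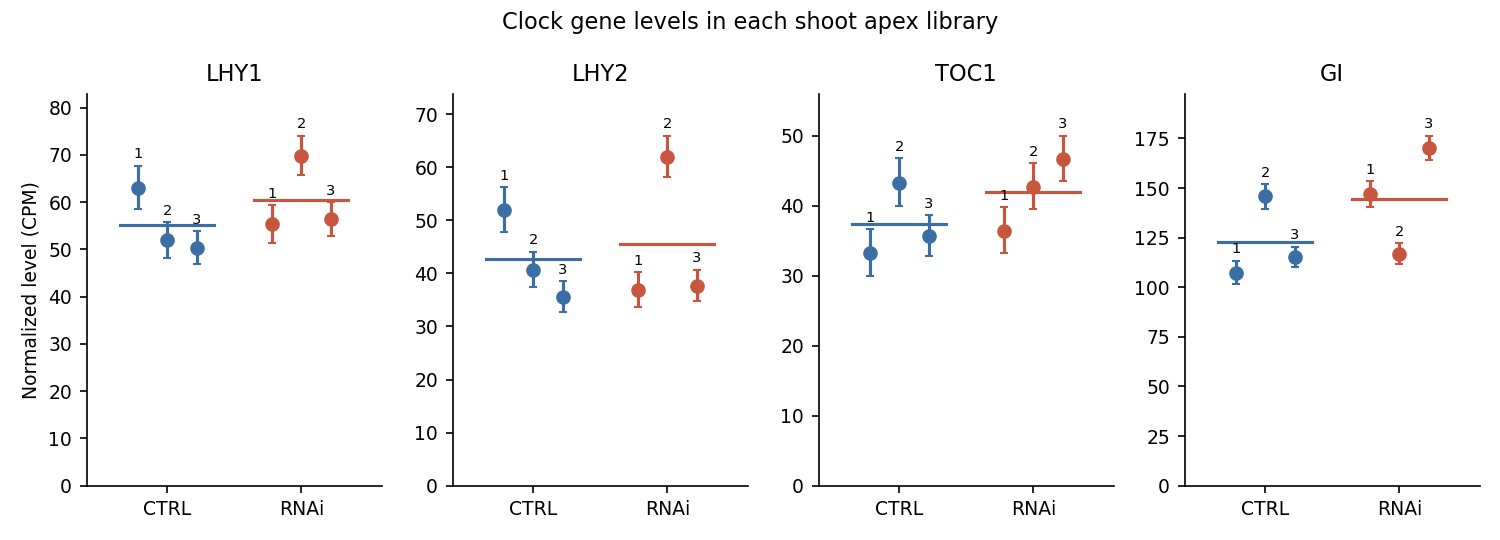
Levels of LHY1, LHY2, TOC1 and GI (CPM, linear axes from 0) in each library, numbered by replicate, with 95% exact Poisson counting intervals as bars and group means as horizontal lines. Blue is CTRL and red is RNAi; CTRL 1 and RNAi 2 are the highest of their groups for LHY1 and LHY2 and the lowest of their groups for GI.

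By edgeR's quasi-likelihood test 0 of the 4 genes passed an adjusted p of 0.05, where 0.004% of all tested genes did, 1 gene in all. At an unadjusted p under 0.05 the count was also 0 of 4, against 5.64% of tested genes, and 0 of 4 had groups that did not overlap, against 11.8% of tested genes. The count was 0 of 4 also with DESeq2, with limma-voom and with the likelihood ratio test of edgeR, which called 0.13%, 0.008% and 0.244% of the genes they tested. Against such low backgrounds a count of 0 among 4 genes says nothing particular to the clock. The median log2 fold change of the 4 was 0.15, beside -0.00096 over all tested genes, and all 4 fitted values were above 0, as were 49.8% of those of all tested genes. Morning and evening genes thus had fitted differences of the same sign with all 6 libraries. Without RNAi 2, which stood apart, the fitted log2 fold changes were 0.02 for LHY1, -0.20 for LHY2, 0.15 for TOC1 and 0.37 for GI, and none passed the test (adjusted p in edgeR from 0.95 to 0.99).

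**Figure D2:**
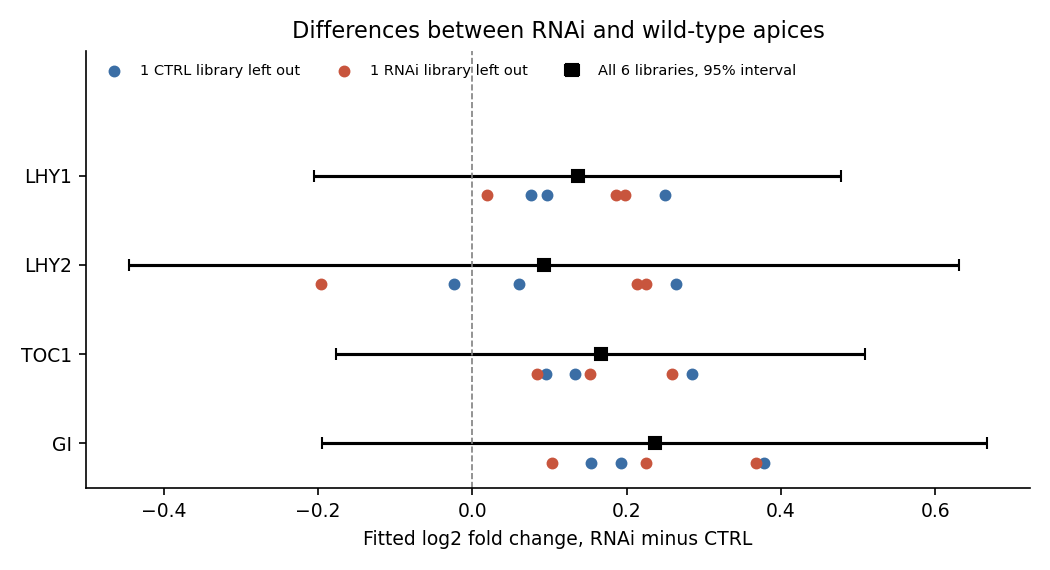
Fitted log2 fold changes (RNAi minus CTRL) of the clock genes, with black squares and bars for the values and 95% intervals from all 6 libraries and dots for fits with 1 library left out (blue, a CTRL library; red, an RNAi library). All 4 intervals include 0, and the dots of LHY2 lie on both sides of it, from -0.20 to 0.26.

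A phase difference between plants could move morning and evening genes apart within a library. This was described by the mean log2 CPM of LHY1 and LHY2 minus that of TOC1 and GI, given here as a deviation from its mean over the 6 libraries, because levels of different genes are not compared without their lengths. The deviation was 0.47, -0.25 and -0.07 in CTRL 1, 2 and 3 and -0.16, 0.43 and -0.42 in RNAi 1, 2 and 3. CTRL 1 and RNAi 2 thus leaned to the morning genes by almost the same amount, and RNAi 3 and CTRL 2 leaned most to the evening genes. The whole range of 0.89 log2 units corresponds to a 1.85-fold shift in the ratio of morning to evening transcripts. The groups differed by -0.10 (RNAi minus CTRL), against an SD within groups of 0.41, and the range was 0.72 within CTRL and 0.85 within RNAi. The sign of the group difference rested on single libraries, being 0.11 without CTRL 1 and 0.08 without RNAi 3. It was -0.34 without RNAi 2. No test was made of this combined value, and without the hour of harvest it does not show a clock phase.

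**Figure D3:**
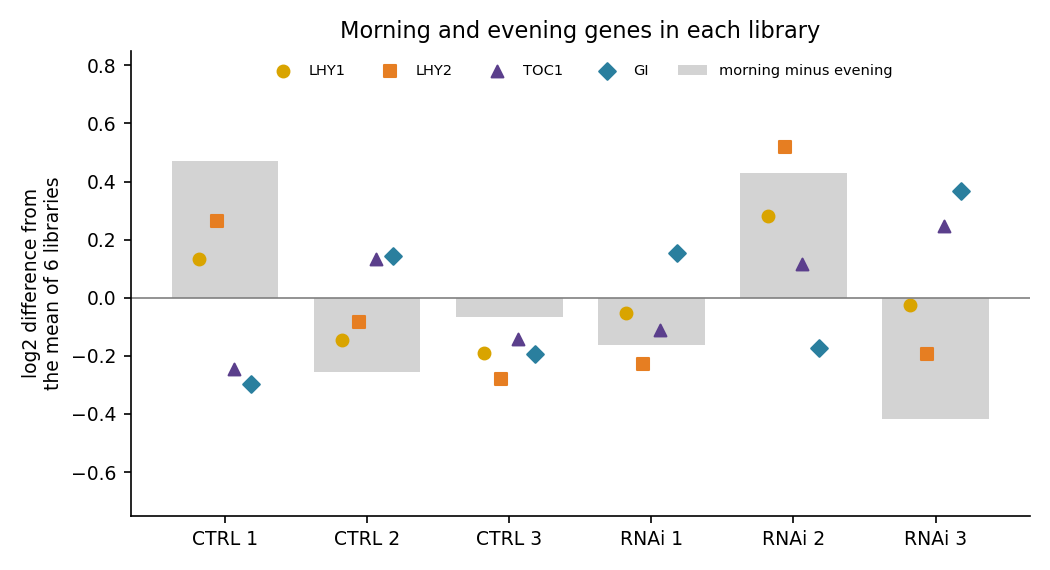
Deviation of each clock gene from its mean over the 6 libraries (symbols, log2 units) and of the morning minus evening difference (grey bars) in each library. The bars reach 0.47 in CTRL 1 and 0.43 in RNAi 2 and fall to -0.42 in RNAi 3, so that both genotypes lie on both sides of 0.

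The pattern was not the same in the 2 leaning libraries. In CTRL 1 both evening genes were the lowest of the 6 libraries while both LHY genes were above the mean of the 6. RNAi 2 combined the highest LHY1 and LHY2 with a low GI, but its TOC1, at 42.7 CPM, was among the upper 3 libraries. CTRL 3 was low in all 4 genes, and RNAi 1 was low in all but GI. CTRL 2 and RNAi 3, which had the highest TOC1 levels, were also the libraries at the upper end of the second principal component of all genes, and CTRL 1, lowest in TOC1 and GI, was at its lower end. The part of these transcriptome-wide differences in the clock gene values was not tested.

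The ratio of GI to TOC1 also varied by library. Relative to its mean over the 6 libraries, the log2 difference of GI and TOC1 was -0.05, 0.01 and -0.05 in CTRL 1, 2 and 3, and 0.27, -0.29 and 0.12 in RNAi 1, 2 and 3. In the wild type these genes kept almost 1 ratio (SD 0.04, n = 3), and in RNAi the ratio ranged over 0.56 log2 units (SD 0.29, n = 3). RNAi 2 carried much of this range, which was 0.14 between the other RNAi libraries. The group difference in the ratio was 0.06 (RNAi minus CTRL, SD within groups 0.21), and 0.23 without RNAi 2 (SD 0.07). Whether the spread itself differed between genotypes was not tested. The log2 difference of LHY1 and LHY2 deviated from its mean by -0.13, -0.06 and 0.09 in CTRL 1, 2 and 3 and by 0.17, -0.24 and 0.17 in RNAi 1, 2 and 3. LHY2 was thus most abundant relative to LHY1 in RNAi 2 and CTRL 1, the libraries in which both were high. The group difference in this ratio was 0.07 (RNAi minus CTRL), within the SD of 0.18. It depended on single libraries, being 0.21 without RNAi 2 (SD 0.09), 0.13 without CTRL 3, 0.02 without CTRL 1, 0.0019 without RNAi 3 and -0.00025 without RNAi 1.

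Across the 6 libraries LHY1 and LHY2 varied together (Pearson r = 0.93, exact permutation p = 0.017, Spearman rho = 0.83, exact permutation p = 0.058, n = 6). After Benjamini-Hochberg adjustment over the 6 pairs of clock genes the exact permutation p was 0.10 for r and 0.175 for rho, so the pair did not pass. With deviations from the group means r was 0.97. It was 0.81 without RNAi 2, and without both RNAi 2 and CTRL 1, the libraries farthest from the median of LHY1, it was 0.06. The relation was thus not seen without those libraries. Leaving out the extremes of LHY1 also narrows its range, which by itself tends to lower r. LHY1 and LHY2 are copies of like sequence, and reads that map to several places are listed apart in the files and enter no gene's count. How many reads of the pair were lost in this way was not measured, and the part of shared sequence in their common variation was not tested.

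TOC1 and GI had r = 0.69 (exact permutation p = 0.10, 0.31 after adjustment over 6 pairs) and rho = 0.83 (exact permutation p = 0.058, 0.175 after adjustment, n = 6). The value of r was 0.60 with deviations from the group means and 0.88 without RNAi 2. It was 0.11 without CTRL 1 and RNAi 3, the libraries farthest from the median of TOC1. Leaving these out also narrows the range of TOC1, which by itself tends to lower r. Between morning and evening genes the correlations were negative for GI and near 0 for TOC1. LHY2 and GI had r = -0.56 (exact permutation p = 0.29, 0.58 after adjustment) and rho = -0.26 (exact permutation p = 0.66, 1 after adjustment), and r went to 0.49 without CTRL 1 and RNAi 2. For LHY1 and GI r was -0.39 (exact permutation p = 0.43, 0.64 after adjustment) and rho -0.09 (exact permutation p = 0.92, 1 after adjustment), with r = 0.88 without the same libraries. TOC1 had r = 0.05 with LHY1 (rho = 0.03) and r = 0.01 with LHY2 (rho = 0.09), each with an exact permutation p of at least 0.92. Without CTRL 1 and RNAi 2 these were 0.47 and 0.66. With deviations from the group means r was -0.75 for LHY1 and GI and -0.71 for LHY2 and GI. The negative sign of r between LHY and GI was thus not seen without both CTRL 1 and RNAi 2, and over the other 4 libraries r was positive. With only 1 library left out, r stayed negative for both LHY genes. The values over 4 libraries were not tested, and leaving out the extremes of LHY1 and LHY2 also narrows their range.

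**Figure D4:**
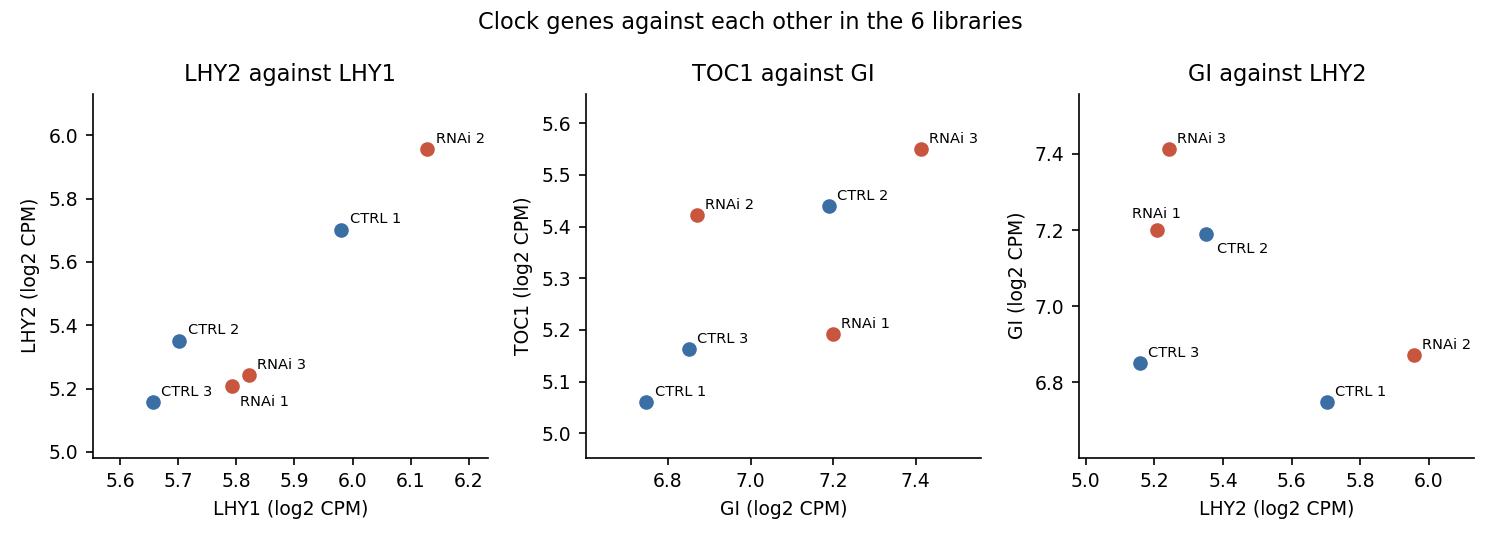
Log2 CPM of LHY2 against LHY1, of TOC1 against GI and of GI against LHY2, with 1 point per library (blue CTRL, red RNAi). In the left plot CTRL 1 and RNAi 2 lie apart at the upper right from the other 4 libraries, and in the right plot the same libraries lie apart at the lower right.

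Taking the 4 genes as 1 profile, the mean distance between libraries (root mean square of the 4 log2 differences) was 0.31 within CTRL (3 pairs), 0.38 within RNAi (3 pairs) and 0.31 between the groups (9 pairs). Libraries of different genotype were thus on average no farther apart than libraries of the same genotype. The closest pair was CTRL 2 and RNAi 3, at 0.15, and CTRL 2 and RNAi 1 were as close. CTRL 3 and RNAi 2 were the farthest apart, at 0.48. CTRL 1 was closer to RNAi 2 (0.24) than to either of the other wild-type libraries (0.32 and 0.37).

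The clock genes were not unusually variable between libraries for their level, and LHY2 was the most variable of them. The SD within groups was 0.18 log2 units for LHY1, 0.36 for LHY2, 0.19 for TOC1 and 0.25 for GI, whereas counting error alone gives between 0.03 and 0.06. Among tested genes with a mean within 0.5 log2 CPM of their own, LHY1 and TOC1 lay near the middle, at percentile 52.5 of 3202 and percentile 56.2 of 4413 genes. GI lay at percentile 67.5 of 1261 genes. LHY2 lay at percentile 87.6 of 4127 genes, whose median SD was 0.17. This position rested on RNAi 2, without which the SD of LHY2 was 0.23 and its percentile 74.6. In the fit the biological coefficient of variation was 0.15 for LHY1, 0.21 for LHY2, 0.15 for TOC1 and 0.18 for GI, beside 0.20 over all genes. The trend of the fit at the level of each gene was 0.18, 0.17, 0.17 and 0.19 in the same order. Only LHY2 lay above its trend.

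**Figure D5:**
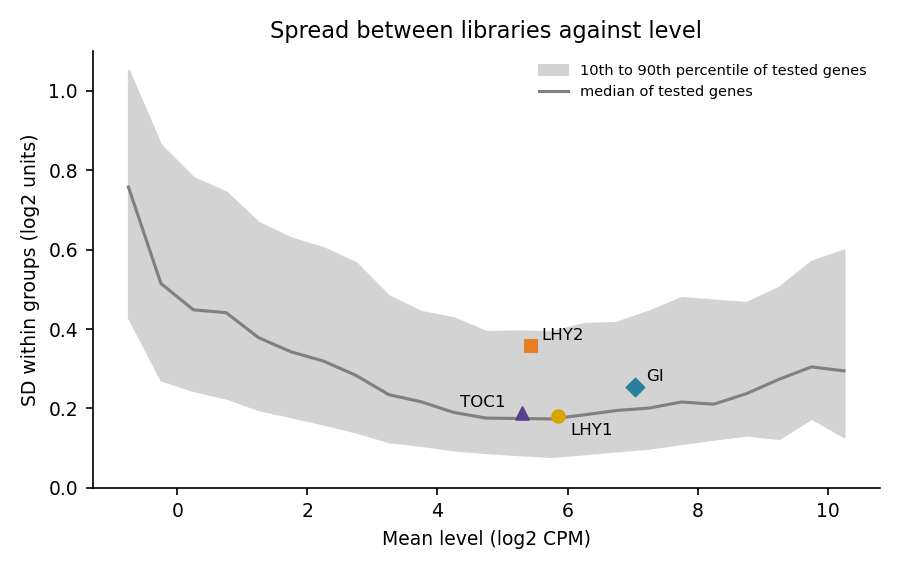
SD within groups (log2 units) against the mean level (log2 CPM) of the clock genes, over the median (line) and the central range (band, from the 10th to the 90th percentile) of all tested genes in bins of level. LHY1 and TOC1 lie on the median line, GI slightly above it and LHY2, at 0.36, near the upper edge of the band.

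The genes whose levels followed each clock gene most closely over the 6 libraries were taken by Pearson's r among the other 24990 tested genes. For LHY1 they were Potri.002G164000 and Potri.010G110500 (both r = 0.996), and for LHY2 Potri.016G101900 and Potri.017G149800 (both r = 0.992). For TOC1 they were Potri.005G176000 and Potri.005G082800 (both r = 0.997). The first of these had a mean of only 0.920 CPM and a lowest value of 0.173 CPM, so that its r rests on few counts. For GI they were Potri.017G093200 (r = 0.994) and Potri.014G174700 (r = 0.990). These are the 2 highest of 24990 values for each clock gene, over only 6 libraries, which alone favours values near 1, and these identifiers were not matched to names. Between the groups none of the 8 was called, with edgeR quasi-likelihood adjusted p from 0.81 to 0.99. The closeness of the LHY pair can be read against the same ranking. LHY1 stood in place 165 among the genes most like LHY2, and LHY2 in place 235 among those most like LHY1, so that fewer than 1% of genes followed either of them more closely. TOC1 and GI were less close by r, with GI in place 2850 of the TOC1 ranking and TOC1 in place 1948 of the GI ranking.

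Reads from the opposite strand were rare at all 4 loci. They made up 0.658% of the stranded counts of LHY1 (34 counts over the 6 libraries, 95% exact binomial interval from 0.456% to 0.918%), 0.205% at LHY2, 0.112% at TOC1 and 0.083% at GI, where all genes together had 1.68%. At LHY1 there were 16 such counts in CTRL and 18 in RNAi, and at GI 4 and 6. These numbers are too small to show a difference between the genotypes. Over the 6 libraries LHY2 was the only gene of the 4 with fewer counts in the column that ignores strand, by 115 of 3901 counts (2.95%).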

How the data were processed

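The authors deposited raw gene counts, 1 file per library, with unstranded, forward and reverse columns, per the file headers. Libraries were polyA-selected, paired-end and stranded, per the labels' protocols, and STAR is named in the submitters' processing notes. Genome build, annotation and the version of STAR: not given in the sources used here. The reverse column, which holds the sense reads of this kit, was used. Summary lines that name no gene held between 11.7% and 13.1% of reads and stayed out.

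RNAi was compared with CTRL over all genes with the quasi-likelihood test of edgeR 4.0.16 in R 4.3.3 (robust, two-sided, TMM factors, filterByExpr), with Benjamini-Hochberg adjustment over 24991 genes and a threshold of 0.05. SEs were obtained from the F statistic and the log2 fold change, and 95% intervals use the fit's degrees of freedom. The test was checked on simulated counts with planted changes larger than the fitted differences of the clock genes. That check does not show how often differences as small as these would be found. Log2 CPM used a prior count of 2. Correlations were tested over all 720 pairings, two-sided, with a smallest possible p of 0.0028. Alternatives used DESeq2 1.42.0 and limma 3.58.1 among others. No library was a duplicate of another, since chi-square per degree of freedom was between 7.25 and 35.5 for the pairs. The series' design text calls the libraries of a group biological replicates. Counting intervals cover counting error only.

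The genes, lists and tests were chosen with earlier results of these data known. The named genes are the 4 clock genes and, for each, the 2 genes with the highest r. A planned list of other clock genes needs gene names and was not analysed here. Distances between libraries, the ratio of GI to TOC1, and spreads without 1 library were added after seeing the data.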

Additional observations from a re-analysis of the deposited data

How the results depend on the processing

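No clock gene passed the threshold under any of 16 alternatives (adjusted p from 0.70 up in edgeR, DESeq2 and limma-voom), and LHY1, TOC1 and GI kept their sign in all of them. With 1 library left out the log2 fold changes ranged from 0.02 to 0.25 for LHY1, from -0.20 to 0.26 for LHY2, from 0.08 to 0.28 for TOC1 and from 0.10 to 0.38 for GI. LHY2 reversed without RNAi 2 (-0.20) and without CTRL 3 (-0.02). The morning minus evening difference between groups ranged from -0.34 to 0.11 with 1 library left out, and that of LHY1 minus LHY2 from -0.00025 to 0.21. The spread with 1 library left out ranged from 0.14 to 0.20 for LHY1, from 0.23 (without RNAi 2) to 0.41 for LHY2, from 0.15 to 0.22 for TOC1 and from 0.21 to 0.29 for GI. With library size only, without TMM factors, the spread was 0.14 for LHY1, 0.32 for LHY2, 0.25 for TOC1 and 0.31 for GI. Correlations with 1 library left out, over 5 libraries and without a test, ranged from 0.81 to 0.96 for LHY1 and LHY2, from -0.31 to 0.38 for LHY1 and TOC1, from -0.74 to -0.23 for LHY1 and GI, from -0.40 to 0.36 for LHY2 and TOC1, from -0.85 to -0.44 for LHY2 and GI and from 0.46 to 0.88 for TOC1 and GI. The correlations near 0 turned sign. That of LHY1 and TOC1 was -0.19 with deviations from group means, -0.18 without CTRL 3 and -0.31 without RNAi 2. That of LHY2 and TOC1 was -0.017 in the unstranded column, -0.053 with deviations from group means, -0.17 without CTRL 3, -0.10 without RNAi 1 and -0.40 without RNAi 2. The count of 1 changed gene over the whole table was 38 with DESeq2, 61 with the likelihood ratio test, 2 with limma-voom and 0 with library size only, with at least 1 CPM in 3 libraries and with the replicate block, and 0 to 7 with 1 library left out, the 7 without RNAi 1. The cause was not tested. Deviations of libraries with the same replicate number had r = 0.24, -0.02 and -0.03 for replicates 1, 2 and 3. The highest value, 0.42, was between CTRL 2 and RNAi 3. CTRL 1 and RNAi 1 were the closest pair by chi-square per degree of freedom (7.25). These values do not show that the number pairs samples, and with 3 libraries a group they cannot exclude it. With the replicate number as a block the log2 fold changes were 0.14 for LHY1, 0.07 for LHY2, 0.17 for TOC1 and 0.23 for GI. With 3 libraries a group, differences inside the 95% intervals given above are not excluded.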
